A study of Mus musculus with 48 samples.

Results

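Regulatory T cells (Tregs) from mice given the attenuated interleukin-2 mutein H16R were compared with Tregs from mice given wild-type (WT) IL-2, in both cases under MHC II blockade. The comparison rests on 8 of the 48 RNA-seq libraries of the series, 4 per molecule and 1 mouse per library, chosen by their labels for cell type, antibody and drug. All 8 came from spleens of female C57BL/6 mice that were 8 to 12 weeks old and carried no engineered allele that the labels name. Every mouse had received 2 doses of 500 μg of MHC II blocking antibody, on the day before and the day of IL-2, and a single subcutaneous dose of 25 μg of IL-2, and the spleen was taken on day 4, so that dose and time matched between the molecules. Both molecules were human IL-2 fused to a human IgG1 Fc without effector function, and the mutein differs from the wild-type molecule by the H16R substitution, which weakens its signaling through STAT5. Cells were purified one mouse at a time on beads, first for CD4 and then for CD25, so the replicates are mice and the p-values measure the spread between them. All 32 Treg libraries of the series entered 1 model, which shares the estimate of the spread, and the Tcon libraries were not used. Total expected counts were 31.25 to 51.24 M in the WT IL-2 libraries and 26.73 to 40.41 M in the H16R libraries.

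IL-2 acts on Tregs through a receptor of CD25, CD122 and the common gamma chain, which drives phosphorylation of STAT5 and, with it, expression of Foxp3, of CD25 itself and of growth and survival genes. Tregs also read antigen on MHC II through the T cell receptor (TCR), and TCR engagement moves resting, recirculating Tregs toward an effector state with higher levels of suppressor molecules, costimulatory receptors and chemokine receptors. The blocking antibody is meant to remove that antigen signal, so the comparison asks how the molecules differ when IL-2 acts with little TCR input.

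The libraries carried their Treg label. The 7 Treg markers (Foxp3, Il2ra, Ctla4, Ikzf2, Tnfrsf18, Cd4 and Cd3e) were present in every library and summed to 3260.2, 4257, 4339 and 4032 CPM after TMM scaling in WT IL-2 replicates 1 to 4 and to 4905, 5156, 5234 and 5177 CPM in the H16R replicates. RNA of other cells differed between the groups as well. WT IL-2 replicate 1 held 1293 CPM of 14 macrophage and monocyte markers and 295 CPM of 10 neutrophil markers. In the other WT IL-2 libraries the same values were 113 to 314 and 6.06 to 43.6 CPM, and in the H16R libraries 89.4 to 162 and 3.14 to 26.8 CPM. Markers of B cells summed to 20208, 15083, 8910.4 and 22354 CPM with WT IL-2 and to 8141, 8739, 9233 and 5947 CPM with H16R, highest in WT IL-2 replicates 4 and 1. Immunoglobulin transcripts made up 2.05 to 4.84% of the expected counts with WT IL-2 and 1.08 to 2.01% with H16R, with the highest shares in WT IL-2 replicates 1 and 4. List counts are therefore given with and without WT IL-2 replicate 1, and single genes without it where that moved the fold change by much. The all-gene shares to set beside them are 25.5% higher and 32% lower, or 25.1% and 28.9% without that library. The lists were chosen with earlier results of these data known, so the shares describe the counts and do not test the lists. Of the tested markers, 9 of 9 for B cells, 5 of 6 for plasma cells, 10 of 11 for macrophages and 7 of 8 for dendritic cells were lower with H16R. Without WT IL-2 replicate 1 these were 1, 5, 2 and 6, and without replicates 1 and 4 they were 0, 4, 0 and 5. In bulk RNA, fewer cells of a type and less RNA per cell cannot be told apart. The 7 Treg markers had a median log2 fold change of 0.39, or 0.32 without WT IL-2 replicate 1. The part of RNA of other cells in the rises of T cell genes given below was not tested.

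**Figure D1:**
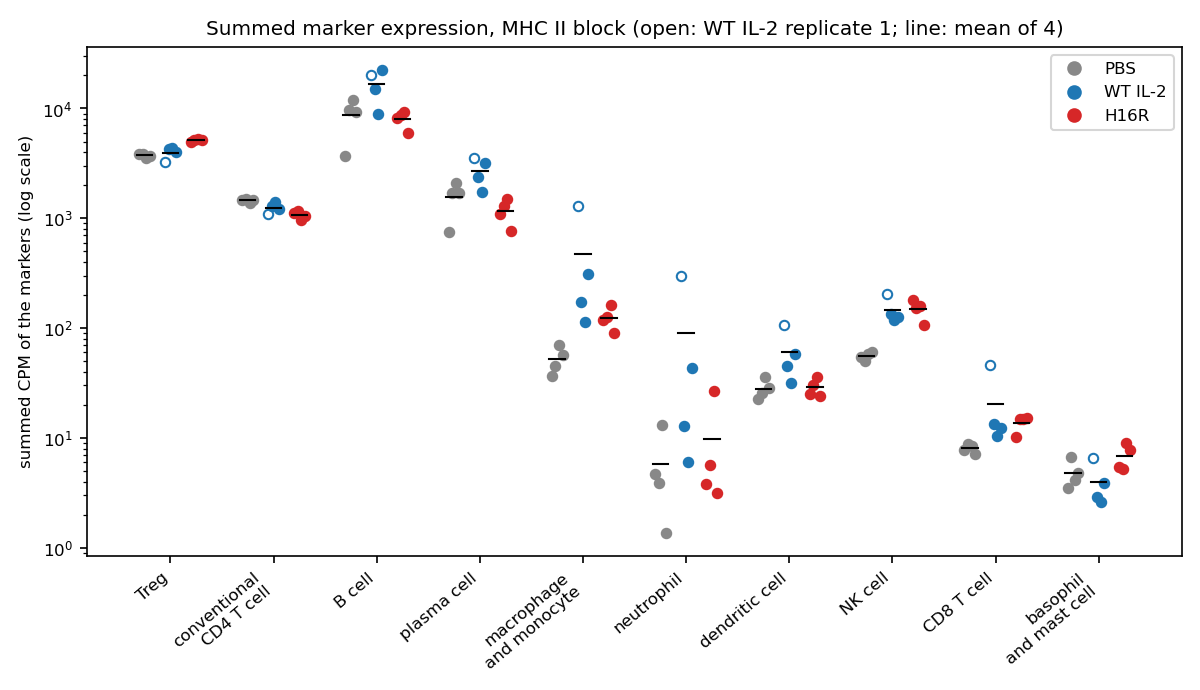
Summed expression of marker genes of 10 cell types in the 12 MHC II block libraries given PBS (grey), WT IL-2 (blue) or H16R (red); the vertical axis is summed CPM on a log scale, each point is 1 mouse and the black line is the mean of 4. WT IL-2 replicate 1 (open circle) was the highest of the 12 libraries for plasma cell, macrophage, neutrophil, dendritic, NK and CD8 T cell markers, and the 4 H16R libraries had the highest sums of Treg markers.

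Of 12392 protein-coding genes tested, 7120 (57.5%) differed between H16R and WT IL-2 at an adjusted p under 0.1 (edgeR's quasi-likelihood test, Benjamini-Hochberg adjustment), 3157 of them (25.5%) higher and 3963 (32%) lower with H16R. The excess of lower genes depended on the processing: without a CPM filter 3756 were higher and 3348 lower, and in a fit of the 8 libraries alone 3168 and 3098. Without WT IL-2 replicate 1, 6669 of 12349 were called (54%), 3094 higher (25.1%) and 3575 lower (28.9%), and 6169 genes (49.8%) were called in the same direction both ways. Without replicates 1 and 4, 5612 of 12325 were called (45.5%), 2732 higher (22.2%) and 2880 lower (23.4%). Most differences were small: the median absolute log2 fold change was 0.20. A rise of at least 1 on the log2 scale was called for 141 genes (1.14%) and a fall of that size for 621 (5.01%), but without replicate 1 these were 175 rises (1.42%) and 255 falls (2.06%), and without replicates 1 and 4 they were 192 (1.56%) and 153 (1.24%). The number of large falls thus depended on these libraries more than the number of large rises.

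Molecules of Treg suppression were higher with H16R, led by granzyme B, IL-10 and LAG-3. Of 19 tested genes of Treg lineage and suppression, 12 rose and 3 fell, against 25.5% and 32% of all genes, with a median log2 fold change of 0.40 against -0.04 over all genes. Without WT IL-2 replicate 1, 11 rose and 3 fell. Gzmb (chromosome 14, 56258838 to 56262260 of GRCm38) encodes granzyme B, a cytotoxic protease, and was at 84.8, 75.0, 87.5 and 85.8 CPM with WT IL-2 and at 471, 442, 544 and 681 CPM with H16R. The 4 WT IL-2 values lay within a narrow range and far below the H16R values, and the level with H16R was 6.42 times that with WT IL-2 (log2 fold change 2.68, standard error 0.23, adjusted p = 2.41e-09). Tregs of MHC II-blocked mice given PBS held 7.60 to 10.3 CPM. Il10 (chromosome 1, 131019845 to 131024974), the gene of an anti-inflammatory cytokine, was at 68.5, 92.4, 81.1 and 87.5 CPM with WT IL-2 and 215, 249, 273 and 264 CPM with H16R. No library of one group reached the range of the other (log2 fold change 1.60, standard error 0.14, adjusted p = 3.38e-09). Lag3 (chromosome 6, 124904361 to 124911705), an inhibitory receptor that binds MHC II, was at 112, 135, 100.4 and 103 CPM with WT IL-2, near the 88.1 to 113 CPM of PBS, and at 409, 409, 436 and 436 CPM with H16R (log2 fold change 1.91, standard error 0.20, adjusted p = 3.50e-08). Of the other cytotoxic genes, Gzma and Prf1 (perforin) were on the list of NK cell markers and rose by 0.57 and 0.54 on the log2 scale, or by 0.85 and 0.84 without replicate 1. Gzma was not called without WT IL-2 replicate 2, 3 or 4 or H16R replicate 1 or 3 (adjusted p = 0.12 to 0.191). In the same comparison, 4 of the 8 tested NK markers fell. The NK marker sum was 206, 135, 119.5 and 126 CPM with WT IL-2 and 178, 151, 158 and 107 CPM with H16R, so that without replicate 1, when 3 of 7 fell, 3 of the 4 H16R libraries lay above the WT IL-2 libraries. The part of NK cell RNA in these rises was not tested.

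Other suppressor genes rose by less. Tigit, an inhibitory receptor for CD155, was at 157 ± 14.4 CPM with WT IL-2 and 323 ± 32.4 CPM with H16R (mean ± SD, n = 4), a log2 fold change of 1.04 (adjusted p = 9.26e-09). Lgals1, which encodes galectin-1, rose from 242 ± 19.0 to 633 ± 96.4 CPM, and Capg, an actin-capping protein high in Tregs, from 243 ± 20.0 to 386 ± 43.4 CPM. Foxp3, the transcription factor that defines the lineage, was at 697, 865, 817 and 794 CPM with WT IL-2 and 1035, 1058, 1126 and 1151 CPM with H16R. The groups did not overlap, and the log2 fold change was 0.46, or 0.40 without replicate 1 (adjusted p = 2.09e-06). Ctla4, Entpd1 (CD39, an ectoenzyme that breaks down ATP), Lrrc32 (GARP, which holds latent TGF-beta at the cell surface) and Fgl2 rose by 0.56, 0.49, 0.40 and 0.36 on the log2 scale. Areg, which encodes the growth factor amphiregulin, passed the threshold with all 8 libraries (log2 fold change 0.24, adjusted p = 0.0822) but not without WT IL-2 replicate 1, 3 or 4 or H16R replicate 1, 3 or 4 (adjusted p = 0.112 to 0.319). The genes that fell were Ebi3, a subunit of IL-35 (-0.74), Itgb8, an integrin chain that activates TGF-beta (-0.48), and Ikzf4, the transcription factor Eos (-0.29). For Ikzf2 (Helios) and Nt5e (CD73, which makes adenosine) no difference was detected, with intervals of -0.27 to 0.14 and -0.06 to 0.32, which span 2 standard errors on either side of the log2 fold change.

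**Figure D2:**
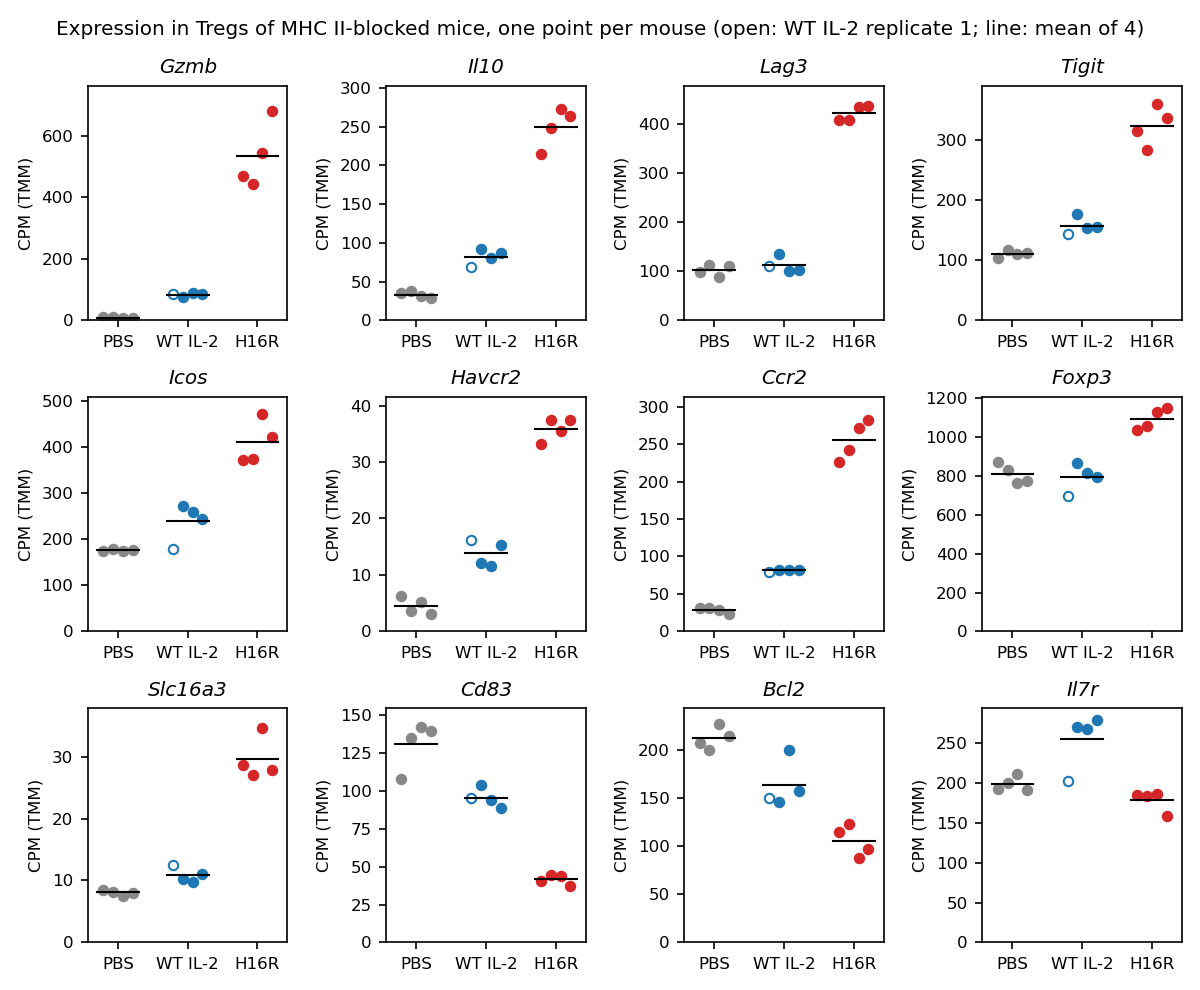
Expression of 12 genes in Tregs of MHC II-blocked mice given PBS (grey), WT IL-2 (blue) or H16R (red); the vertical axis of each panel is CPM after TMM scaling, each point is 1 mouse, the line is the mean of 4 and the open circle is WT IL-2 replicate 1. For each of the 12 genes, the 4 H16R libraries lay wholly above or wholly below the 4 WT IL-2 libraries, as they did for 18.8% (above) and 17.7% (below) of all genes tested.

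Genes of the effector Treg state moved with the suppressor molecules. Of 22 tested, 16 rose and 3 fell (median log2 fold change 0.55), and 15 rose and 2 fell without WT IL-2 replicate 1, against 25.5% and 32% of all genes (25.1% and 28.9% without it). Among costimulatory receptors, Icos was at 179.9, 273, 259 and 244 CPM with WT IL-2 and 372, 374, 474 and 423 CPM with H16R (log2 fold change 0.78, standard error 0.11, adjusted p = 4.18e-06). The groups did not overlap, and WT IL-2 replicate 1 was the lowest library. The tumour necrosis factor receptors Tnfrsf4 (OX40), Tnfrsf1b (TNFR2), Tnfrsf18 (GITR) and Tnfrsf9 (4-1BB) rose by 0.65, 0.61, 0.46 and 0.43 on the log2 scale. The inhibitory receptors Havcr2 (TIM-3) and Pdcd1 (PD-1), rose by 1.38 and 0.77. Among transcription factors of effector T cells, Tbx21 (T-bet), Maf, Batf and Prdm1 (Blimp-1) rose by 0.77, 0.73, 0.66 and 0.61. Prdm1 is also on the plasma cell list, whose other 5 members were all lower with H16R. Not every effector gene took part. Cd44, an adhesion receptor of activated T cells, and the nuclear receptor Rora fell by 0.39 and 0.46 on the log2 scale, and Klrg1 and Hopx did not pass the threshold, with intervals of -0.18 to 0.51 and -0.13 to 0.19. Gata3 was called with 8 libraries (log2 fold change 0.20, adjusted p = 0.025) and was not called without replicate 1 (0.12, adjusted p = 0.148).

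Of 15 tested chemokine receptors, 7 were higher and 4 lower with H16R, with and without WT IL-2 replicate 1, and their median log2 fold change was 0.00 with that library and 0.32 without it. Over all genes 25.5% were higher and 32% lower, so the falls do not set the list apart. Receptors for inflammatory chemokines were among those that rose. Ccr2 (chromosome 9, 124101950 to 124113557), which binds CCL2, was at 79.3, 82.0, 81.7 and 82.6 CPM with WT IL-2 and 226, 243, 271 and 282 CPM with H16R (log2 fold change 1.65, standard error 0.13, adjusted p = 3.40e-10). It was nearly constant within the WT IL-2 group and did not overlap between the groups. Cxcr3, the receptor of interferon-induced chemokines, Ccr4, Cxcr6 and Ccr8 rose by 0.98, 0.94, 0.66 and 0.55 on the log2 scale. Ccr3, which is known mainly from eosinophils and basophils, rose by 0.76, but by 1.46 without replicate 1, which alone was at 17.7 CPM against 4.06 to 5.88 in the other WT IL-2 libraries and 11.5 to 16.1 with H16R. Ccr6, which binds CCL20, was at 18.9 to 22.8 CPM with WT IL-2 and 9.22 to 11.5 CPM with H16R (log2 fold change -0.95, adjusted p = 9.12e-06). The other 3 that fell depended on single libraries. The gut-homing receptor Ccr9 (log2 fold change -0.41) was not called without H16R replicate 3 (adjusted p = 0.108), and Cxcr4 (-0.28) was not called without WT IL-2 replicate 2 (0.339) or H16R replicate 2 (0.115). Ccr7, the receptor for lymph node entry (-0.26), was not called without WT IL-2 replicate 2 or 3 or H16R replicate 1, 3 or 4 (adjusted p = 0.105 to 0.348).

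Of 23 cytokine and cytokine receptor genes, 10 rose and 4 fell, and the counts were the same without WT IL-2 replicate 1, against 25.5% and 32% of all genes. The interleukin genes that rose were at low levels. Il21, a helper cytokine of follicular T cells, was at 2.64, 5.14, 3.93 and 2.74 CPM with WT IL-2 and 14.8, 15.3, 11.1 and 14.4 CPM with H16R (log2 fold change 1.94, adjusted p = 3.24e-04), and Il4 and Il13, cytokines of type 2 immunity, rose by 1.81 and 2.00 on the log2 scale. Il4 was at 1.90 to 2.96 CPM with WT IL-2 and 7.77 to 10.3 CPM with H16R, and Il13 was at 1.27 to 1.98 CPM with WT IL-2 and 5.49 to 9.12 CPM with H16R. None of the 3 overlapped between the groups. Ifng, the cytokine of type 1 immunity, rose from 52.5 ± 5.76 to 71.7 ± 4.09 CPM. Among receptors, both IL-12 receptor chains rose (Il12rb2 by 1.02 and Il12rb1 by 0.51 on the log2 scale), as did Il10ra (0.50), Ifngr1 (0.52), Il4ra (0.47) and Il21r (0.44). Il7r, the receptor for a survival cytokine of resting T cells, fell (-0.52, adjusted p = 8.97e-04), and so did the IL-1 decoy receptor Il1r2 (-1.04) and Tgfbr1 (-0.31). The fourth that fell, Il18r1 (-0.31), was not called without WT IL-2 replicate 4 (adjusted p = 0.104) or H16R replicate 4 (0.116).

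The largest rises included genes better known from other tissues. The glucagon gene Gcg (chromosome 2, 62474530 to 62483650) was at 5.00, 10.9, 7.10 and 3.41 CPM with WT IL-2 and 81.2, 85.5, 67.3 and 76.0 CPM with H16R (log2 fold change 3.54, standard error 0.34, adjusted p = 9.26e-09). Lgals7, which encodes galectin-7, was at 3.48, 4.52, 3.52 and 2.49 CPM and 28.6, 34.7, 39.7 and 39.5 CPM (log2 fold change 3.35, standard error 0.22, adjusted p = 8.24e-12). In both genes the lowest H16R library was several times above the highest WT IL-2 library, and in PBS libraries they were at 0.807 to 1.69 and 1.64 to 3.20 CPM. Fam20a, a pseudokinase of the secretory pathway, Vdr, the vitamin D receptor, Ggt1, a gamma-glutamyltransferase, Nos1, the neuronal nitric oxide synthase, and Amotl1, an angiomotin-like junction protein, rose by 2.79, 2.43, 2.11, 2.05 and 2.48 on the log2 scale. Lgals3 (galectin-3) rose by 1.66, or 1.92 without WT IL-2 replicate 1. The interferon-induced membrane proteins Ifitm1, Ifitm2 and Ifitm3, neighbours on chromosome 7, rose by 3.51, 2.09 and 1.80 on the log2 scale, and by 3.90, 2.35 and 2.21 without it. Ifitm1 was at 2.40 to 6.90 CPM with WT IL-2 and 31.2 to 57.2 CPM with H16R, and Ifitm3 was at 8.18 to 22.6 CPM with WT IL-2 and 33.9 to 56.1 CPM with H16R. For all 3, WT IL-2 replicate 1 was the highest of the WT IL-2 libraries.

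Mcpt1, a chymase known from mucosal mast cells, rose from 1.19, 0.529, 0.481 and 0.461 CPM to 7.53, 8.24, 13.7 and 12.5 CPM (log2 fold change 4.02, standard error 0.44, adjusted p = 6.60e-08, or 4.41 without replicate 1). Hdc, which makes histamine, was at 8.84, 2.52, 1.58 and 1.52 CPM with WT IL-2 and 15.7, 18.1, 18.2 and 24.3 CPM with H16R. Replicate 1 stood above the other WT IL-2 libraries, and the log2 fold change was 2.46 with it and 3.36 without it (adjusted p = 2.38e-05 and 6.85e-08). These genes, Il4, Il13 and Ccr3 are also expressed by basophils or mast cells, so 8 markers of those cells were examined. Their sum was 6.49, 2.91, 2.58 and 3.87 CPM with WT IL-2 and 5.38, 5.25, 8.96 and 7.70 CPM with H16R. Of the 4 tested, 3 rose, or 4 without replicate 1. The IgE receptor chains Fcer1a and Ms4a2 did not exceed 0.623 and 0.279 CPM in any of the 8 libraries, and Mcpt8, a basophil protease, was at 0.0192 to 1.10 CPM with WT IL-2 and 0.718 to 1.93 CPM with H16R. The part of such cells in these rises was not tested.

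Genes of the IL-2 receptor and its signaling chain differed by smaller amounts. Of 15 genes of the IL-2 receptor, the JAK-STAT5 chain and its feedback, 9 rose and 2 fell (median log2 fold change 0.14), and 8 rose and 1 fell without WT IL-2 replicate 1, against 25.5% and 32% of all genes (25.1% and 28.9% without it). All 3 receptor chains were higher with H16R. Il2rb (CD122), the signaling chain, was at 767, 866, 847 and 825 CPM with WT IL-2 and 1157, 1121, 1259 and 1243 CPM with H16R (log2 fold change 0.53, standard error 0.06, adjusted p = 2.47e-07). Il2rg, the common gamma chain, rose by 0.33 and Il2ra (CD25) by 0.38. The general T cell genes Cd3e and Cd4, given below, rose by similar amounts to Il2rg and Il2ra. The part of RNA of other cells in these rises was not tested. All cells had been selected on CD25 protein, and the part of that step in the level of Il2ra was not tested. Jak3, the kinase bound to the gamma chain, rose by 0.49, and the feedback inhibitors Socs2 and Socs3 by 0.91 and 0.53. Socs2 was at 44.2, 49.5, 59.3 and 50.4 CPM with WT IL-2, 88.2, 87.6, 107 and 100.4 CPM with H16R and 24.8 to 32.3 CPM with PBS. Cish, a direct STAT5 target, had a log2 fold change of 0.14 (adjusted p = 0.0534) and was not called without WT IL-2 replicate 1, H16R replicate 3 or H16R replicate 4 (adjusted p = 0.118 to 0.253). No difference was detected for Stat5a or the feedback inhibitor Socs1, with intervals of -0.05 to 0.16 and -0.26 to 0.07. Bcl2, a survival factor, was at 150.0, 146, 200.4 and 157 CPM with WT IL-2 and 114, 123, 87.6 and 96.9 CPM with H16R, and at 200.0 to 227 CPM in the PBS libraries. The groups did not overlap, and the fall with H16R was 0.63 on the log2 scale (adjusted p = 5.13e-06).

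Genes of mitosis rose together. All 24 tested genes of mitosis and the G2/M phase were higher with H16R, with a median log2 fold change of 0.65, and all 24 were also called without WT IL-2 replicate 1 (0.67) and without replicates 1 and 4 (0.76). Their log2 fold changes ran from 0.30 for the kinesin Kif23 to 0.98 for Birc5 (survivin), a component of the chromosomal passenger complex. Birc5 (chromosome 11, 117849251 to 117855743) was at 22.8, 18.2, 17.8 and 21.4 CPM with WT IL-2 and 37.5, 34.8, 46.6 and 38.3 CPM with H16R (standard error 0.16, adjusted p = 2.53e-05). Ube2c, a ubiquitin-conjugating enzyme of mitotic exit, was at 31.1, 21.8, 21.3 and 24.8 CPM and 46.3, 42.4, 54.6 and 47.2 CPM (log2 fold change 0.95, adjusted p = 5.60e-05). No gene of the list was lower by edgeR, also at an unadjusted p under 0.05, nor at the threshold by DESeq2 or limma. In 22 of the 24 genes all H16R libraries lay above all WT IL-2 libraries, as they did in 18.8% of all genes. The exceptions were Kif23 and the proliferation marker Mki67, which was at 307, 229, 219 and 311 CPM with WT IL-2 and 313, 374, 379 and 305 CPM with H16R. Neither was called without WT IL-2 replicate 3 (adjusted p = 0.14 for Kif23 and 0.102 for Mki67), and Kif23 was also not called without WT IL-2 replicate 2 (0.121) or H16R replicate 3 (0.127). Of the 24 genes, 21 were called higher without WT IL-2 replicate 3. In Tregs of PBS-treated mice Mki67 was at 169 to 184 CPM and Birc5 at 13.8 to 15.4 CPM. Genes of DNA replication moved less: 12 of 27 rose, 0 fell by edgeR or DESeq2, 1 fell by limma on log2 FPKM, and the median was 0.15, or 0.23 without replicate 1, with 13 called. Over all genes 25.5% rose and 32% fell. Without WT IL-2 replicate 3 or H16R replicate 3 the number that rose dropped to 4 and 6. Rrm2, a ribonucleotide reductase subunit, rose most (0.60), and for Pcna, the replication clamp, no difference was detected (interval -0.15 to 0.08).

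Because the mitotic genes moved as a group, their promoters are shown. Many such genes carry a cell cycle homology region and CCAAT boxes close to the start site. RefSeq promoter windows (GRCm38.p6, 250 bases before to 50 after the start) were found for 20 of the 24 genes. TTTGAA, the core of the cell cycle homology region, was present on either strand in 15 of the 20 genes (75%), against 14.6% of 9764 tested genes with a window and 20.2% of all 27025 genes with one. CCAAT was present in 17 of 20 (85%), against 42.9% and 41.1%, and both motifs in 14 of 20 (70%), against 5.91% and 7.97%. Among 21 genes of DNA replication with a window, 2 (9.52%) held TTTGAA and 14 (66.7%) held CCAAT. These matches describe the sequence and were not tested for a link with expression. The following 5 stretches of 150 bases end at the base before the start site and are from 5 of the 7 genes in which TTTGAA lies within that stretch, chosen after the sequences were seen; capitals mark TTTGAA and CCAAT on either strand.
Cdk1, chr10:69352913-69353062, minus strand: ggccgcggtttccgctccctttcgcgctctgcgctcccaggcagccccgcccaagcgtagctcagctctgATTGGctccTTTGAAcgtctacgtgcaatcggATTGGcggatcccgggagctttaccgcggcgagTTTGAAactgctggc
Top2a, chr11:99024190-99024339, minus strand: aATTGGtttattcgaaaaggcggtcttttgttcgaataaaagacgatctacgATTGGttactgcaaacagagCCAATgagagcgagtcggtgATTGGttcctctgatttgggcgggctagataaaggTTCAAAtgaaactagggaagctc
Ube2c, chr2:164769779-164769928, plus strand: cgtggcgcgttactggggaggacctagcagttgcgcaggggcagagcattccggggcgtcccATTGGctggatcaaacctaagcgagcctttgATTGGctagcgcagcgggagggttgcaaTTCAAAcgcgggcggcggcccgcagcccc
Cdc20, chr4:118437344-118437493, minus strand: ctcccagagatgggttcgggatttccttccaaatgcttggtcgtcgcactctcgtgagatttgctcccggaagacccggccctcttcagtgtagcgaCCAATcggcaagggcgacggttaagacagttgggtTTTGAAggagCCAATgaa
Kif11, chr19:37376232-37376381, plus strand: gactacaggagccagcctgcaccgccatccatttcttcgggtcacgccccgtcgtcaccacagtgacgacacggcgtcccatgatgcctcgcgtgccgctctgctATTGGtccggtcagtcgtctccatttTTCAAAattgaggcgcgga

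The genes with these promoters encode the mitotic kinase Cdk1 (log2 fold change 0.66), topoisomerase II alpha (0.67), Ube2c (0.95), the anaphase activator Cdc20 (0.58) and the spindle motor Kif11 (0.63). Top2a was at 133, 127, 124 and 142 CPM with WT IL-2 and 214, 203, 219 and 202 CPM with H16R. Its values were close within each group and did not overlap.

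Genes of energy metabolism and protein turnover were higher with H16R. Over all genes 25.5% rose and 32% fell, or 25.1% and 28.9% without WT IL-2 replicate 1. Of 17 glycolytic genes 14 rose and 1 fell (median log2 fold change 0.34), and 15 rose without WT IL-2 replicate 1. Slc16a3, the lactate exporter MCT4, was at 12.5, 10.2, 9.68 and 11.0 CPM with WT IL-2 and 28.7, 27.1, 34.6 and 27.9 CPM with H16R (log2 fold change 1.45, standard error 0.14, adjusted p = 1.46e-08). Lactate dehydrogenase Ldha was at 392, 453, 418 and 417 CPM and 701, 646, 744 and 795 CPM (log2 fold change 0.78, adjusted p = 1.28e-08). Neither gene overlapped between the groups. The 1 glycolytic gene that fell was hexokinase Hk2 (-0.64), while Hk1 rose (0.35). Of 38 genes of oxidative phosphorylation 30 rose and none fell, and of 34 proteasome subunits 32 rose and none fell, the same counts as without replicate 1. No member of either list was lower at an unadjusted p under 0.05 by edgeR, or at the threshold by DESeq2 or limma. These rises were small, with medians of 0.27 and 0.25 and with Cox6b1 (0.47) and the proteasome activator Psme2 (0.52) at the top. Psme2 was at 201, 238, 204 and 203 CPM with WT IL-2 and 298, 275, 309 and 329 CPM with H16R. In sterol synthesis 13 of 20 genes rose, with phosphomevalonate kinase Pmvk (0.78) highest, and Insig1, an inhibitor of the pathway, fell (-0.20), and without replicate 1 the number that rose was 12. Among 21 small GTPase and cytoskeleton genes (labelled small GTPase and actin regulators in the figure) 20 rose. The structural genes Vim, the intermediate filament vimentin (0.75), and beta-actin, Actb (0.63), were highest. Without replicate 1, 18 rose and Rdx (radixin, -0.12, adjusted p = 0.0209) fell.

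**Figure D3:**
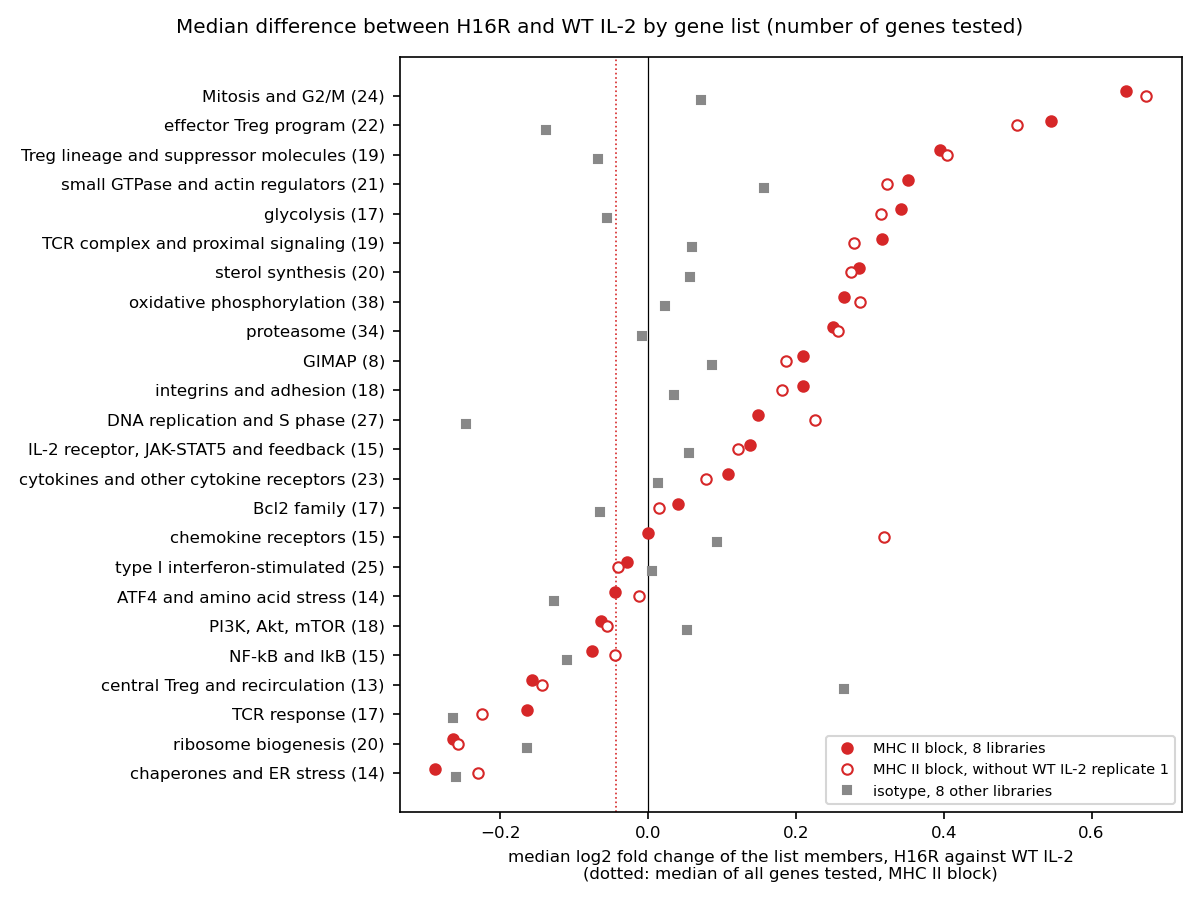
Median log2 fold change of H16R against WT IL-2 over the tested members of 24 gene lists; the horizontal axis is log2, filled red circles are the MHC II block arm with 8 libraries, open red circles the same arm without WT IL-2 replicate 1 and grey squares the isotype arm. Mitosis and G2/M had the highest median under MHC II block (0.65) and a median of 0.07 under isotype, and the chemokine receptors were the list that moved most when replicate 1 was left out.

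Components of the TCR were higher in H16R libraries. Of 19 genes of the TCR complex and proximal signaling 15 rose and 1 fell, and 14 rose and 1 fell without WT IL-2 replicate 1. The list was led by the costimulatory receptor Cd2 (0.58), the kinase Zap70 (0.53) and Cd247, the zeta chain (0.52). Zap70 was at 232, 265, 239 and 246 CPM with WT IL-2 and 354, 319, 360.3 and 388 CPM with H16R. Cd3e and Cd4 rose by 0.39 and 0.37, or by 0.32 and 0.30 without replicate 1. The share of immunoglobulin RNA was lower with H16R, as given above, and its part in these rises was not tested. Of 17 response genes downstream of the TCR, 4 rose (Dusp5, Nfatc1, Cd5 and Nr4a1) and 7 fell, among them Rel (-0.56), Myc (-0.39) and Egr1 (-0.51), against 25.5% and 32% of all genes. Egr1 is also on the list of immediate-early and stress genes described below. Without WT IL-2 replicate 1, 4 rose and 8 fell. The number that fell was 3 without WT IL-2 replicate 2 and 4 without WT IL-2 replicate 3 or 4 or H16R replicate 3 or 4, each left out alone. Nr4a1, whose level is often read as TCR signal strength, was at 619, 671, 641 and 643 CPM with WT IL-2 and 708, 776, 834 and 769 CPM with H16R (log2 fold change 0.26, adjusted p = 0.0446), and was not called without H16R replicate 3 (adjusted p = 0.122). For Egr2, another early target of the TCR, no difference was detected (interval -0.30 to 0.08).

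Immediate-early and stress genes were lower with H16R. The 12 genes that report cell isolation stress and early activation summed to 15221, 13568, 12269 and 14096 CPM with WT IL-2 and to 10593, 10398, 10664 and 10202 CPM with H16R, without overlap. Of the 12, 9 fell and none rose, and 8 fell without WT IL-2 replicate 1, against 32% and 28.9% of all genes. Jun, an AP-1 subunit, was at 3183, 2829.7, 2584 and 2991 CPM and 1911, 1922, 1695 and 1625 CPM (log2 fold change -0.70, adjusted p = 2.92e-06). Atf3, a stress-induced transcription factor, was at 134, 75.6, 56.7 and 78.5 CPM and 25.1, 32.0, 34.8 and 25.2 CPM (log2 fold change -1.55, adjusted p = 7.17e-07, or -1.27 without replicate 1). The heat shock genes Hspa1a and Hspa1b fell by 2.29 and 1.95 on the log2 scale with all libraries and by 1.31 and 1.24 without replicate 1, which held 152 and 201 CPM against at most 32.3 and 64.1 CPM in the other WT IL-2 libraries. Whether handling of the spleens differed between the groups is not given in the sources used here.

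Other genes were named for the size of their fall without WT IL-2 replicate 1. Cd83, an activation marker of lymphocytes and dendritic cells, was at 95.4, 104, 94.1 and 88.5 CPM with WT IL-2 and 40.4, 44.8, 44.0 and 37.0 CPM with H16R (log2 fold change -1.20, standard error 0.17, adjusted p = 2.31e-06). Its 4 WT IL-2 values lay close together, replicate 1 included, and below the 108 to 142 CPM of PBS. Zbtb16 (PLZF), the transcription factor of innate-like T cells, Dscam, an adhesion molecule of neurons, and Plagl1, an imprinted zinc finger gene, fell by 1.18, 1.21 and 1.27 on the log2 scale. The giant genes Sspo and Ttn fell by 1.37 and 1.40. Rnase6, Sema6d, F13a1 (a subunit of coagulation factor XIII) and Prg2 are known mainly outside T cells, and fell by 1.67, 1.85, 1.37 and 1.34 on the log2 scale, or by 1.26, 1.37, 1.21 and 1.23 without replicate 1. The myeloid inhibitory receptor Cd300a was at 31.8 CPM in replicate 1 and at 2.29 to 5.91 CPM in the other WT IL-2 libraries, against 1.15 to 2.43 CPM with H16R, and its log2 fold change moved from -2.67 to -1.24 without it. The calcium channel gene Cacna1e overlapped between the groups (66.9, 17.6, 17.9 and 40.7 CPM against 7.30, 21.2, 11.1 and 4.89 CPM). Without replicates 1 and 4, Ttn and Cacna1e were no longer called (adjusted p = 0.111 and 0.153).

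Ribosome biogenesis fell as a group. Of 20 genes 16 fell and none rose, with and without WT IL-2 replicate 1, and the median log2 fold change was -0.26. Over all genes 32% fell and 25.5% rose, or 28.9% and 25.1% without replicate 1. Polr1b, a subunit of RNA polymerase I, was at 34.1, 32.2, 35.4 and 37.1 CPM with WT IL-2 and 23.4, 26.6, 21.5 and 21.8 CPM with H16R (log2 fold change -0.58, standard error 0.07, adjusted p = 2.27e-07), and the nucleolar GTPase Gnl3 fell by 0.56 on the log2 scale. Neither overlapped between the groups. Of 14 chaperones and ER stress genes 10 fell, 9 without replicate 1 and 5 without replicates 1 and 4, when 23.4% of all genes fell. Hsp90b1, an ER chaperone, was at 841, 741, 518 and 861 CPM with WT IL-2 and 487, 535, 582 and 442 CPM with H16R. Summed plasma cell markers, like Hsp90b1, were lowest in replicate 3 among the WT IL-2 libraries, at 3535, 2369, 1737 and 3171 CPM, and were 1091, 1284, 1489 and 761 CPM with H16R, and Xbp1 is on both lists. The part of plasma cell RNA in the ER genes was not tested.

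Of 18 integrins and adhesion receptors 10 rose and 6 fell, with 10 and 6 without WT IL-2 replicate 1, and the falls are near the 32% of all genes that fell, against 25.5% that rose. Those that rose were led by Itga1 (0.67), Selplg, the selectin ligand PSGL-1 (0.61), and Itgae (CD103, 0.54), which binds E-cadherin on epithelia. Itgae was at 149, 158, 151 and 162 CPM with WT IL-2 and 210.1, 218, 259 and 217 CPM with H16R. Cd226, an activating receptor that shares its ligand with Tigit, fell (-0.46). Of 17 genes of the Bcl2 family and cell death 6 rose and 5 fell, shares near the 25.5% and 32% of all genes, and without replicate 1 these were 6 and 4. The death effector Bak1 (0.58) rose, while the pro-death gene Pmaip1 (Noxa, -0.42) fell alongside Bcl2. Bak1 was at 58.9, 61.3, 56.4 and 57.5 CPM with WT IL-2 and 88.1, 78.3, 91.8 and 91.4 CPM with H16R.

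Of 25 interferon-stimulated genes, 8 rose and 8 fell, or 9 and 7 without WT IL-2 replicate 1, against 25.5% and 32% of all genes, so the counts do not set the list apart. Ifit1, an antiviral RNA-binding protein, was at 126 to 172 CPM with WT IL-2 and 56.3 to 79.4 CPM with H16R (log2 fold change -1.13, adjusted p = 1.13e-06), and Ifit3 and Mx1 fell by 0.77 and 0.63 on the log2 scale. The nucleic acid sensor Zbp1, the GTPase Ifi47 and Oas1a rose by 0.65, 0.50 and 0.47. Of 13 genes of resting, recirculating Tregs, 3 rose and 6 fell, with 3 and 6 without WT IL-2 replicate 1, and 3 fell without H16R replicate 3. Markers of conventional CD4 T cells, 4 of 8 of which are on the same list, summed to 1094, 1289.7, 1393 and 1206 CPM with WT IL-2 and 1121, 1176, 962 and 1054 CPM with H16R, and 3 of the 8 fell, or 4 without WT IL-2 replicate 1. The part of such cells was not tested. S1pr1, the receptor for egress from lymphoid tissue, was at 221 to 271 CPM with WT IL-2 and 345 to 370.0 CPM with H16R (log2 fold change 0.55, adjusted p = 1.64e-06), while Il7r and the transcription factor Tcf7 (TCF-1) fell by 0.52 and 0.29 on the log2 scale. For Klf2, which maintains S1pr1, no difference was detected (interval -0.35 to 0.04).

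The same comparison in isotype-treated mice, which shares no library with this one, was set beside it to ask whether the difference between the molecules depended on MHC II block. In that arm WT IL-2 replicates 3a and 3b share a label number and were counted as separate samples. There, 2309 of 12392 genes differed (18.6%), 1099 higher (8.87%) and 1210 lower (9.76%) with H16R. The difference itself, tested as an interaction of molecule and antibody, passed the threshold for 2908 genes (23.5%), with a higher log2 fold change under MHC II block in 1557 (12.6%) and a lower one in 1351 (10.9%). Without the MHC II block WT IL-2 replicate 1 it passed for 3186 genes (25.8%), and without MHC II block H16R replicate 3 or 4 for 1884 or 1798. Scaling by total counts in place of TMM changed the split to 1814 and 1019.

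For mitosis, 18 of 24 genes passed this test, all with a higher log2 fold change under MHC II block, and under isotype none was called in either direction, nor at an unadjusted p under 0.05 by edgeR, the tool run there (median 0.07). Birc5 averaged 21.4 ± 4.62 CPM with WT IL-2 and 23.8 ± 2.95 CPM with H16R under isotype, against 20.1 ± 2.45 and 39.3 ± 5.12 CPM under block (mean ± SD, n = 4). Of 34 proteasome genes, 30 passed, and none was called under isotype, where 1 was higher at an unadjusted p under 0.05. DNA replication genes passed in 19 of 27, where 11 were lower with H16R under isotype. Effector Treg genes passed in 14 of 22 toward block and 1 away from it, and suppressor genes in 12 of 19 toward block. Central Treg genes were the reverse, with 8 of 13 passing in the other direction and 8 of 13 higher with H16R under isotype. Of the 8 conventional CD4 T cell markers, 6 passed in that direction and 3 were higher under isotype, where they summed to 990.0 to 1146 CPM with WT IL-2 and 1184 to 1271 CPM with H16R. Without MHC II block WT IL-2 replicate 1, 18 mitosis, 29 proteasome, 19 DNA replication, 14 effector Treg and 12 suppressor genes passed toward block and 9 central Treg genes away from it.

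Single genes showed how the arms differed. Lag3 averaged 202 ± 81.4 CPM with WT IL-2 and 192 ± 24.5 CPM with H16R under isotype, against 112 ± 15.8 and 422 ± 15.5 CPM under block (interaction 1.98 on the log2 scale, standard error 0.27, adjusted p = 4.16e-05). Il10 averaged 158 ± 37.5 and 182 ± 29.3 CPM under isotype and 82.4 ± 10.4 and 250.1 ± 25.6 CPM under block (interaction 1.40, adjusted p = 5.17e-05). In both genes the WT IL-2 mean was lower and the H16R mean higher under block than under isotype, a comparison that was not tested. Gzmb was higher with H16R in both arms, at 88.2 ± 26.3 and 178 ± 58.4 CPM under isotype, and the difference was larger under block (interaction 1.67, adjusted p = 9.47e-04). Tigit gave an interaction of 1.14 (adjusted p = 8.91e-06). By the rule for named genes, the largest interactions were those of Spp1 (osteopontin), Fam20a, Gcg, Vdr, Lag3, Ifitm1, Il21 and Lgals7, from 1.85 to 2.55. Spp1 rested on single libraries and was not called without isotype WT IL-2 replicate 2 (adjusted p = 0.303), isotype H16R replicate 2 (0.114), block WT IL-2 replicate 4 (0.109) or block H16R replicate 1 (0.144). Under block it was at 2.90, 5.00, 4.70 and 2.35 CPM with WT IL-2 and 19.0, 10.9, 5.00 and 6.95 CPM with H16R. The largest in the other direction were smaller, from -0.95 for Dapk1, a death-associated kinase, and -0.94 for F13a1 to -0.71 for Arhgap5, with Zfp966 (-0.89), Sorcs2 (-0.81), Zfp992 (-0.78), St8sia6 (-0.74) and Sp6 (-0.73) between. F13a1 was not called without isotype WT IL-2 replicate 2 (0.111) or isotype H16R replicate 2 (0.133), and Zfp992 was not called without isotype WT IL-2 replicate 2 (0.114) or block H16R replicate 3 (0.124) or 4 (0.124). Mcpt1, Hdc, Cd83, Atf3 and Zbtb16 did not pass the test of the difference, with intervals of -0.19 to 2.25, -0.34 to 1.85, -0.62 to 0.30, -0.80 to 0.29 and -0.76 to 0.18.

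**Figure D4:**
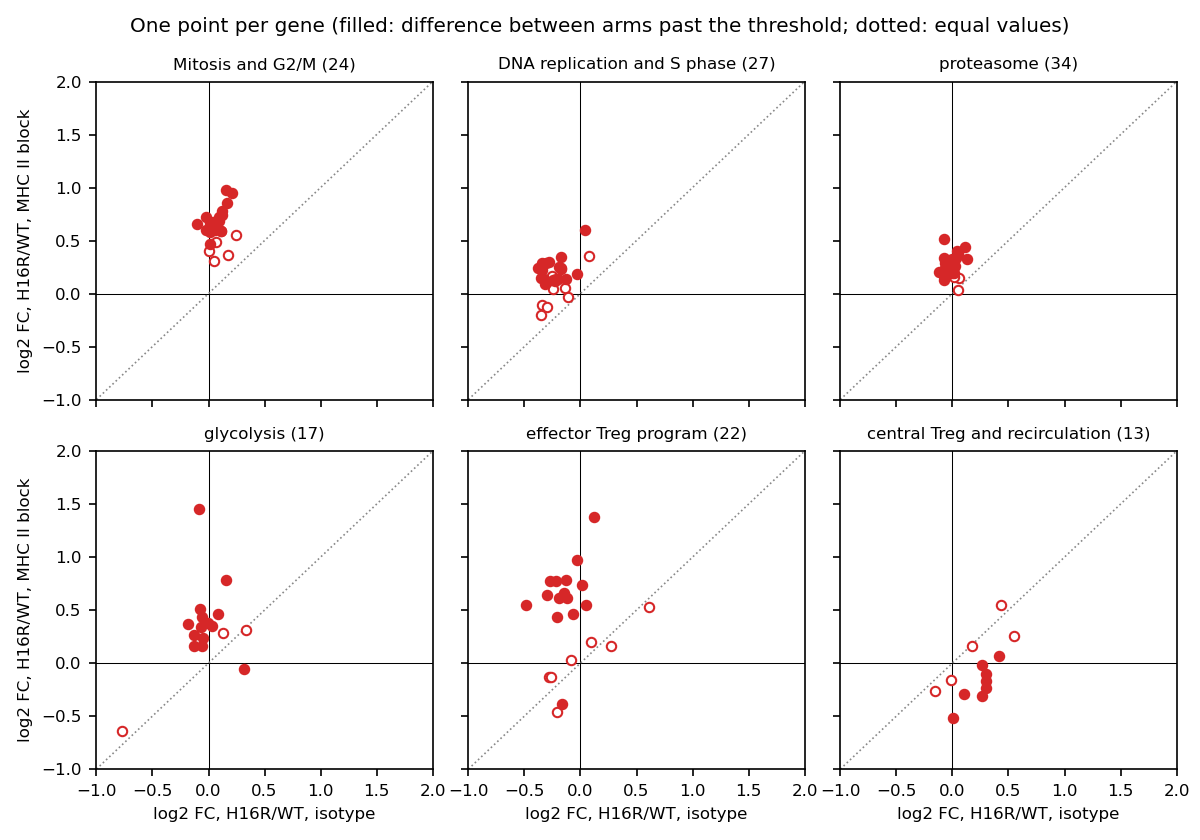
Log2 fold change of H16R against WT IL-2 for each tested member of 6 gene lists, under isotype antibody (horizontal axis) and under MHC II block (vertical axis); filled points passed the test of the difference between the arms and the dotted line marks equal values. Mitosis genes lay between 0.30 and 0.98 under block and close to 0 under isotype, and central Treg genes lay mostly below the line.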

How the data were processed

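Poly(A)-selected, strand-specific RNA-seq libraries of CD25-selected splenic Tregs were compared by molecule and antibody. Per the labels and the methods, the authors aligned reads to mouse genome B38 with OSA and quantified genes by RSEM in Omicsoft Array Suite, and deposited an expected count and an FPKM value per gene and sample. Expected counts were rounded to whole numbers. Tables of DESeq2 1.30.1 results that the authors deposited (log2 fold changes, p-values and Wald scores) were not used.

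Counts were scaled by TMM and tested with edgeR 4.0.16 (quasi-likelihood test, R 4.3.3) in 1 model of the 8 Treg groups (32 libraries), over protein-coding genes with more than 0.5 CPM in at least 4 libraries, with Benjamini-Hochberg adjustment and a threshold of 0.1. Coordinates are those of GENCODE vM21 on GRCm38. The test was tried on simulated data first. Intervals are the estimate plus or minus 2 standard errors. Named genes are members of the lists and the 15 largest rises and falls, and the 8 in each direction of the interaction, by the fold change without WT IL-2 replicate 1, among genes called in the same direction both ways, with a mean above 5 CPM and on no marker list of another cell type (predicted genes, receptor and immunoglobulin segments left out). The members and lists were chosen with earlier results of these data known, and the basophil and mast cell list and the fit without replicates 1 and 4 were added after seeing the data. Other settings included DESeq2 1.42.0, limma 3.58.1 on log2 FPKM, other filters and thinned counts. Same-numbered WT IL-2 and H16R libraries did not deviate together (correlations of -0.35, -0.26, -0.50 and -0.18), so numbers were not used as a block. CPM values are counts divided by the TMM-scaled library total and can be compared between libraries, not between genes of different length. Some members of the lists and 1 gene that the rule names are not reported here. Counts of genes with near-identical copies can be split by the quantification.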

Additional observations from a re-analysis of the deposited data

Results flagged for a closer look

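In groups of 4 libraries, the gap between an extreme library and its nearest neighbour was set against the range of the group and compared with the 95% critical value of Dixon's test for 4 samples. Of 360 groups of values 23 passed it, where chance flags about 5%, and 13 of these were WT IL-2 replicate 1. WT IL-2 replicate 1 was the highest of its group for Mcpt1 (1.19 CPM against 0.461 to 0.529, ratio 0.9073), Hdc (8.84 CPM against 1.52 to 2.52, ratio 0.8630) and Ifitm3 (22.6 CPM against 8.18 to 10.4, ratio 0.8486). The same library was also the highest for Hspa1a (152 CPM against 28.6 to 32.3, ratio 0.9701), Cd300a (31.8 CPM against 2.29 to 5.91, ratio 0.8773) and Hspa1b (201 CPM against 48.8 to 64.1, ratio 0.8997). The same library was also the highest for Ccr3 (17.7 CPM against 4.06 to 5.88, ratio 0.8673) and Prf1 (16.0 CPM against 7.81 to 8.51, ratio 0.9150). The same library was also the highest for macrophage markers (1293 CPM against 113 to 314, ratio 0.8294), neutrophil markers (295 CPM against 6.06 to 43.6, ratio 0.8701) and CD8 T cell markers (45.8 CPM against 10.3 to 13.5, ratio 0.9113). WT IL-2 replicate 1 was the lowest of its group for Cxcr6 (48.0 CPM against 66.5 to 69.2, ratio 0.8735) and Il7r (203 CPM against 268 to 279, ratio 0.8477). H16R replicate 3 was the highest of its group for Itgae (259 CPM against 210.1 to 218, ratio 0.8467) and neutrophil markers (26.8 CPM against 3.14 to 5.67, ratio 0.8934). H16R replicate 3 was the lowest of its group for Ccr9 (11.3 CPM against 14.9 to 15.3, ratio 0.8899). H16R replicate 2 was the highest of its group for Zfp992 (7.45 CPM against 3.82 to 4.31, ratio 0.8651). H16R replicate 2 was the lowest of its group for Hopx (87.9 CPM against 101 to 102, ratio 0.8963). WT IL-2 replicate 4 was the lowest of its group for Il13 (1.27 CPM against 1.90 to 1.98, ratio 0.8891) and stromal and endothelial markers (148 CPM against 164 to 166, ratio 0.9153). H16R replicate 1 was the lowest of its group for CD8 T cell markers (10.1 CPM against 14.7 to 15.1, ratio 0.9121). H16R replicate 4 was the lowest of its group for Il7r (159 CPM against 183 to 186, ratio 0.8911). WT IL-2 replicate 2 was the highest of its group for Psme2 (238 CPM against 201 to 204, ratio 0.9182).

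The difference between H16R and WT IL-2 itself differed between the MHC II block and isotype arms for 25 of the genes named by rule or given with an interaction above, by edgeR's quasi-likelihood test at an adjusted p under 0.1. The log2 fold change was higher under MHC II block by the amounts in brackets for Spp1 (2.55), Gcg (2.13), Fam20a (2.12), Vdr (2.08), Lag3 (1.98), Ifitm1 (1.98), Il21 (1.97), Lgals7 (1.85) and Nos1 (1.76), and by less for Ggt1 (1.70), Gzmb (1.67), Amotl1 (1.46), Ifitm2 (1.41), Il10 (1.40), Tigit (1.14), Lgals3 (1.09) and Birc5 (0.82). It was lower under MHC II block for Dapk1 (-0.95), F13a1 (-0.94), Zfp966 (-0.89), Sorcs2 (-0.81), Zfp992 (-0.78), St8sia6 (-0.74), Sp6 (-0.73) and Arhgap5 (-0.71). Of the other genes named in the text, 81 also passed this test. The causes of these differences were not tested.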

How the results depend on the processing

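The count of genes that differed under MHC II block, 7120, was 5612 to 7781 under every alternative that kept the threshold except 1, and leaving out single libraries gave 6017 to 7395. The exception was the replicate block within the 8 libraries, which gave 4635 (2510 higher and 2125 lower), while a replicate block within the MHC II block arm gave 6897. Same-numbered libraries did not deviate together, but so few libraries cannot show whether same-numbered mice were handled together. A minimum of 1 on the absolute log2 scale left 762 genes. For the interaction (2908 genes), single libraries left out gave 1798 to 3903, an adjusted p under 0.05 gave 1799 and a minimum of 1 on the log2 scale gave 188. Its split moved with the processing, from 1557 higher and 1351 lower to 1814 and 1019 with total counts, 1696 and 689 without a CPM filter, 1761 and 860 with limma on log2(FPKM + 1), 1858 and 855 with all biotypes and 1478 and 746 with libraries thinned to the smallest total. No named gene changed direction in a called result. Counts moved by more than 1.5 times under at least 1 setting for the TCR response, ATF4, PI3K, NF-kB, central Treg, DNA replication and ER chaperone lists (the lower PI3K count fell from 6 to 2 without a CPM filter or with all biotypes), and 505 of 528 list counts stayed within 1.5 times the value reported. With 4 mice per group and 1 WT IL-2 library rich in myeloid RNA, the number of macrophage markers that were lower went from 10 to 2 when that library was left out. The cause of the changes between settings was not tested.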

Other observations

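Of 18 genes of the PI3K, Akt and mTOR pathway, 5 were higher and 6 lower with H16R under MHC II block (2 lower without a CPM filter, and 6 higher and 6 lower without WT IL-2 replicate 1), with Akt2 at 0.41 and Rictor, a subunit of mTOR complex 2, at -0.36 on the log2 scale. Of 15 genes of NF-kB signaling, 3 were higher, led by the atypical inhibitor Bcl3 (0.61), and 4 were lower, led by Rel, and without replicate 1 these were 3 and 4. Of 14 genes of the amino acid stress response, 4 were higher and 5 lower, and without WT IL-2 replicate 1 these were 4 and 3. Over all genes 25.5% were higher and 32% lower, so the counts do not set these 3 lists apart. Ddit4, an inhibitor of mTOR, was at 50.1, 49.1, 44.4 and 38.2 CPM with WT IL-2 and 74.4, 68.6, 88.7 and 85.4 CPM with H16R (0.81 on the log2 scale). Of 8 GTPases of the immunity-associated (GIMAP) family 5 rose (4 without replicate 1), with Gimap7 (0.56) highest, and none fell by edgeR, DESeq2 or limma, or at an unadjusted p under 0.05 by edgeR.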
